A study of Mus musculus with 3 samples.

Results

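The genes described here encode the subunits, activators, inhibitor and assembly chaperones of the constitutive proteasome, measured in mouse regulatory T cells. They were taken by symbol, as protein-coding genes named Psma, Psmb, Psmc, Psmd, Psme, Psmf or Psmg with a number, without the immunoproteasome genes Psmb8, Psmb9 and Psmb10. The rule found 47 of the 22457 genes in the count files. They comprised 8 alpha and 8 beta genes of the 20S core, 6 ATPases, 3 further base subunits and 8 lid subunits of the 19S regulator, 5 activator genes, 1 inhibitor, 3 chaperones of the 19S base and 4 chaperones of the 20S core. The remaining gene, Psmc3ip, shares only the start of its symbol with the family, since its product acts in meiotic recombination.

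The proteasome is the protease that degrades proteins marked with ubiquitin. Its barrel-shaped 20S core has outer rings of alpha subunits, which gate the entrance, around inner rings of beta subunits, of which Psmb5, Psmb6 and Psmb7 carry the active sites. The 19S regulator caps the core, binds ubiquitin chains, removes them and unfolds the substrate with a ring of ATPases. Lymphocytes also make the immunoproteasome, in which Psmb8, Psmb9 and Psmb10 take the places of Psmb5, Psmb6 and Psmb7, and the PA28 activator of Psme1 and Psme2, which serve the generation of peptides for MHC class I.

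The study holds 1 group, regulatory T cells from adult mice aged 4 months, profiled by polyA plus RNA-seq in 3 libraries. The labels call the cells primary, trace them to haematopoietic cells of bone marrow, and number the libraries as technical replicates 1, 2 and 3 of biological replicate 1. No genotype, strain, treatment or sort is given, and whether animals were pooled is not given either. There is thus no contrast between conditions: levels are described, and tests only ask whether the 3 libraries differ beyond counting error.

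The libraries held 3206781, 3228215 and 2872350 counts. A count of 3 corresponded to 0.936, 0.929 and 1.04 CPM (counts scaled to a library total of 1000000) in libraries 1, 2 and 3. The 7 regulatory T cell markers, among them Foxp3, were all detected and summed to 2613, 2528 and 2616 CPM. Markers of other cells were also present and uneven: 6 B cell markers summed to 235, 297 and 390 CPM, 4 plasma cell markers to 138, 230 and 157 CPM, 6 erythroid markers to 8.11, 172 and 148 CPM, and 6 neutrophil markers to 1.56, 77.8 and 9.40 CPM. The 4 markers of cycling cells summed to 559, 542 and 398 CPM, and the 2 CD8 markers to 27.8, 34.4 and 39.0 CPM. In library 1, 4 of the 6 erythroid markers and 3 of the 6 neutrophil markers were at 0. Genes within a list did not all move together. Of the plasma cell list, Jchain had 92, 389 and 129 counts, but Prdm1 had 323, 299 and 279. Of the B cell list, Cd22 had 172, 165 and 149 counts while the sum rose. In bulk RNA, fewer cells of a type and less RNA per cell cannot be told apart.

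Many proteasome genes have processed copies elsewhere in the genome, so the sequences of 4 pairs are shown first, since they bear on how far a count can be assigned to 1 gene. Each pair gives 90 bases of a gene's coding sequence and the aligned stretch of a copy, 5′ to 3′, in GRCm38 from GENCODE M21, and capitals mark the bases that differ. The stretch was chosen so that its number of mismatches comes closest to the identity of the whole alignment. For the alpha subunit Psma3 (chr12:70983319-70983408, plus strand) the processed pseudogene Gm13835 (chr6:31142553-31142642, minus strand) is identical.
Psma3: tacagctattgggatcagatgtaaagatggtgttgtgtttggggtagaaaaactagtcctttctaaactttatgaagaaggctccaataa
Gm13835: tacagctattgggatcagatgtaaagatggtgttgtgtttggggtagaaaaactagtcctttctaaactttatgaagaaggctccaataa
For the alpha subunit Psma5 (chr3:108265093-108265182, plus strand) and the processed pseudogene Gm12989 (chr4:135716381-135716470, minus strand) the stretch holds 2 differences, at a whole identity of 97.5%.
Psma5: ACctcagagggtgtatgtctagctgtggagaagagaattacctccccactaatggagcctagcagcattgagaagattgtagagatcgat
Gm12989: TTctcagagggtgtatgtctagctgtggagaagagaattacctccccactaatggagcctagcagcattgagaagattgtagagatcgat
For the catalytic subunit Psmb5 (chr14:54617902-54617991, minus strand) and the processed pseudogene Gm3375 (chr7:3181093-3181182, plus strand) there is 1 difference, at a whole identity of 98.9%.
Psmb5: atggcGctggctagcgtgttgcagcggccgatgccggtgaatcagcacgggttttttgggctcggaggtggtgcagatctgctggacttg
Gm3375: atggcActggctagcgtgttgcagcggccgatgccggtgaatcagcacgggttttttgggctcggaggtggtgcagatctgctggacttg
For the catalytic subunit Psmb6 (chr11:70527231-70527320, plus strand) and the processed pseudogene Psmb6-ps2 (chr1:101386355-101386444, plus strand) there are 8 differences, at a whole identity of 92.0%.
Psmb6: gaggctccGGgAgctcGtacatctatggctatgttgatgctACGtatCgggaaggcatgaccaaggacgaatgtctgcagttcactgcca
Psmb6-ps2: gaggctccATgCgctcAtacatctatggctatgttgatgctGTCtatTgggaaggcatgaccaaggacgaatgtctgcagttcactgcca
A 50-base stretch of most of Psma3 could thus come from another locus, while most of Psmb6 is told apart from its copy.

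Nearly the whole family was expressed. Of the 47 genes, 45 stood at 1 CPM or more in every library, against 10866 of all 22457 genes (48.4%) and 49.8% of protein-coding genes. The exceptions were Psma8 and Psmb11, the forms of the core known from germ cells and from thymic epithelium. Psma8 had 0, 4 and 0 counts and Psmb11 had 0, 0 and 1 counts in libraries 1, 2 and 3, so both were at or near the floor of 3 counts. The family took 0.860% of all counts in library 1 (95% exact binomial interval 0.850 to 0.870%), 0.937% in library 2 (0.927 to 0.948%) and 0.914% in library 3 (0.903 to 0.925%). The mean share was 0.904% ± 0.0397 (SD, n = 3), and intervals cover counting error only.

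Levels of different genes are compared per length. A level is the count per 1000 bases of coding sequence, scaled so that all genes of a library sum to 1000000 (TPM by coding length), and is given as mean ± SD over the 3 libraries. The SD is that of technical libraries and not of animals. The median level of the 47 genes was 239 TPM, with an SD of 11.9 TPM between the medians of single libraries, against 45.2 TPM for all 10282 genes with a mean count of at least 10. The sum over the family was 11213, 11916 and 11845 TPM in libraries 1, 2 and 3.

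**Figure D1:**
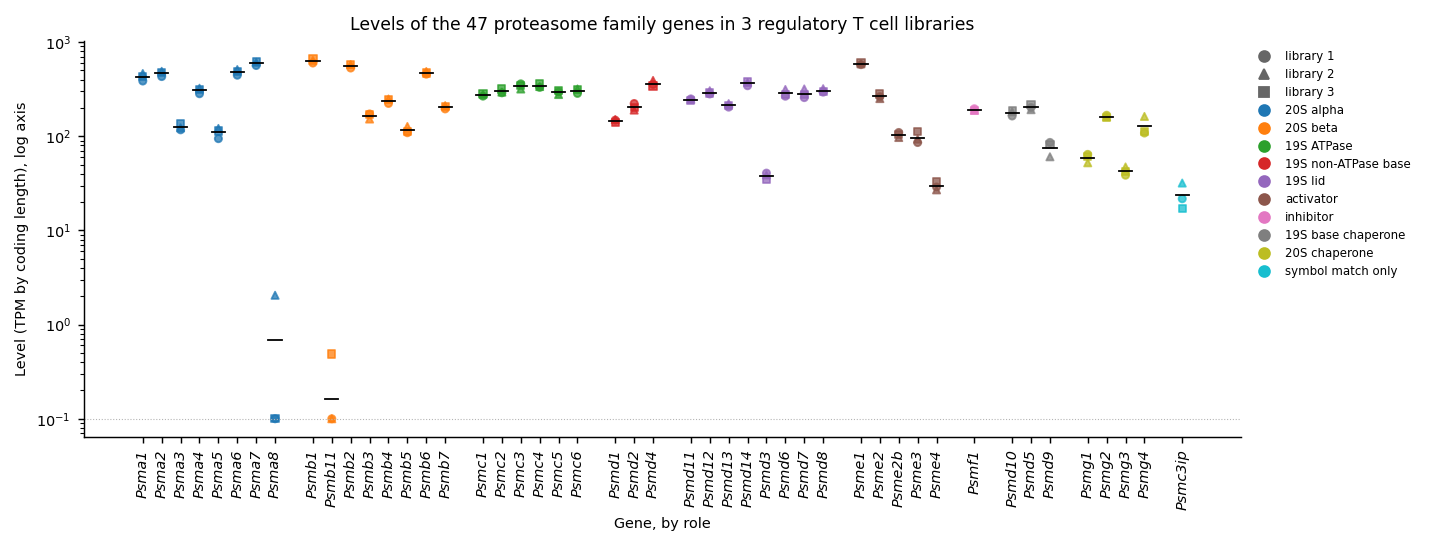
Level of each gene on a log axis (TPM by coding length), grouped by role, with 1 symbol for each of the 3 libraries and a bar at their mean; a library with a count of 0 is drawn on the dotted line. The 6 ATPases lie between 277 and 343 TPM, the 20S core genes other than Psma8 and Psmb11 spread between 110 and 635 TPM, and Psmd3 is the 19S gene far below the others at 38.1 TPM.

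The alpha subunits of the 20S core spread widely. Psma7 was the highest, with 564, 611 and 618 TPM in libraries 1, 2 and 3 (598 ± 29.3 TPM). Psma6 had 445, 511 and 486 TPM (481 ± 33.2 TPM). Psma2 had 431, 490 and 479 TPM (466 ± 31.5 TPM). These 3 subunits and Psma1, with 386, 464 and 428 TPM (426 ± 38.9 TPM), were lowest in library 1. Psma4 stood at 306 ± 21.05 TPM. Psma3 had 117, 123 and 136 TPM (125 ± 9.59 TPM) and Psma5 had 94.3, 121 and 114 TPM (110 ± 13.8 TPM), and in every library both lay below each of the other 5 expressed alpha genes. The 7 expressed alpha subunits, which are present in equal numbers in the ring, thus differed up to 5.45-fold in level, and up to 11.7-fold per exon length, where Psma6 was highest at 852 TPM.

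Per coding length the 7 expressed beta subunits differed up to 5.48-fold. Psmb1, a structural subunit, had the highest level of the whole family per coding length with 600, 639 and 666 TPM (635 ± 33.3 TPM), and Psmb2, another structural subunit, had 531, 578 and 575 TPM (561 ± 26.6 TPM). Psmb3 stood at 165 ± 11.3 TPM and Psmb4 at 239 ± 13.5 TPM, both structural. Of the catalytic subunits, Psmb6, which cleaves after acidic residues, had 457, 487 and 471 TPM (472 ± 15.3 TPM). Psmb7, which cleaves after basic residues, had 195, 212 and 208 TPM (205 ± 8.65 TPM). Psmb5, which cleaves after hydrophobic residues and is the main target of proteasome inhibitor drugs, had 109, 127 and 112 TPM (116 ± 9.72 TPM). The order Psmb6, Psmb7, Psmb5 was the same in all 3 libraries and the values of the 3 genes did not overlap. Per exon length Psmb6 was again highest at 533 TPM, but Psmb7, at 148 TPM, lay below Psmb5, at 303 TPM, in every library.

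Per coding length, the lowest core genes were those with the most exact copies elsewhere. For each gene the share of all 50-base windows of its coding sequence that occur unchanged in a transcript of another annotated locus was counted. Among the 14 core genes without Psma8 and Psmb11, the 4 with more than 50% of windows shared were Psma3 (85.6%), Psma5 (79.1%), Psmb3 (70.7%) and Psmb5 (56.8%). Their levels were 110 to 165 TPM (median 121 TPM), against 205 to 635 TPM (median 469 TPM) for the other 10, so the ranges did not overlap. They did not overlap in CPM either, at 62.7 to 80.2 against 134 to 361 CPM, but per exon length they did, at 73.0 to 303 TPM (median 155 TPM) against 148 to 852 TPM (median 319 TPM). Spearman's rho between share and level over the 14 genes was -0.63 (-0.61 per exon length) and Pearson's r with the log2 level was -0.82. This is a description across genes that share their 3 libraries and is not tested. Psmb4 and Psmb7 had no shared window and levels of 239 and 205 TPM, the lowest of the other 10. How reads that fit several loci were treated is not given in the sources used here, and the part of the copies in these levels was not tested.

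**Figure D2:**
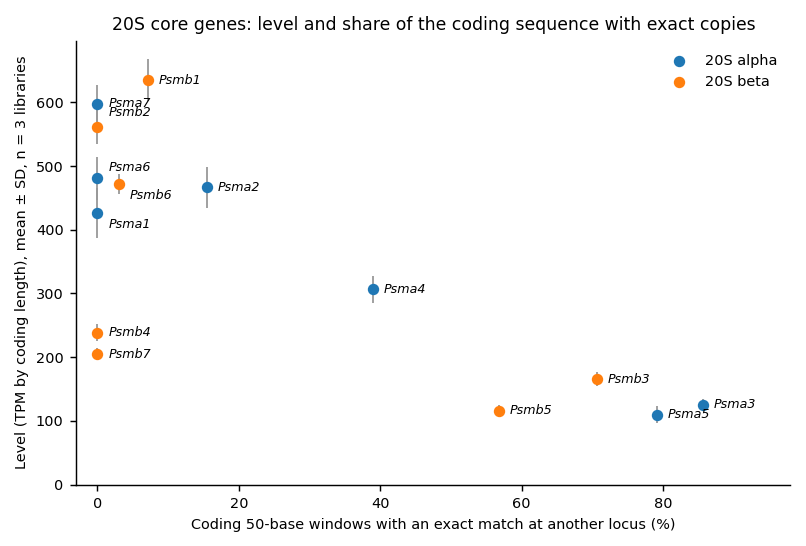
Level of the 14 constitutive 20S core genes (TPM by coding length, mean ± SD over 3 libraries) against the percentage of 50-base coding windows with an exact match at another locus. The 4 genes to the right of 50% lie between 110 and 165 TPM, and the other 10 between 205 and 635 TPM.

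Over the whole family, 17 of the 47 genes had such a window and 30 had none. A copy with at least 90% identity over at least 50% of the coding sequence was found for 15 genes, at 27 loci apart from the Psme2 and Psme2b pair. Of these loci 3 were in the count files, and they held at most 3 counts in any library. One of them, the Psma5 copy Gm8394, is 98.9% identical to Psma5 and had 0, 3 and 1 counts. Exons of 13 genes were overlapped by another gene, over at most 25.5% of their length (Psmd9), and with no strand setting stated the overlapping reads cannot be assigned.

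The ATPases of the 19S regulator were the most even class of several genes per coding length. The 6 ATPases, which form 1 ring, stood between 277 and 343 TPM, a 1.24-fold range: Psmc4 was highest at 343 ± 15.3 TPM, with Psmc3 next to it at 342 ± 22.2 TPM. Psmc6 had 305 ± 17.6 TPM, Psmc2 300 ± 14.8 TPM and Psmc5 293 ± 14.96 TPM, which lay within their spread of one another. Psmc1 was lowest at 277 ± 8.93 TPM. Divided by the length of all annotated exons instead, the same 6 genes ranged 3.01-fold, from 252 to 760 TPM, and their exon lengths run from 1394 to 5031 bases. In CPM, with no length correction, the range was 1.27-fold, so the evenness depends on the length used.

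Among the other base subunits, the ubiquitin receptor Psmd4 had 355, 392 and 342 TPM (363 ± 25.9 TPM). The scaffold subunits Psmd2 and Psmd1 were lower per coding length, at 205 ± 16.9 TPM and 146 ± 5.92 TPM. Per exon length they had 409 and 170 TPM, against 432 TPM for Psmd4. In CPM, with no length correction, Psmd2 was the highest of the family at 439 CPM. Psmd1 and Psmd4, at 329 and 323 CPM, then lay within their spread of each other. In the lid, Psmd14, the deubiquitinase that cuts chains off the substrate, was highest per coding length with 344, 372 and 381 TPM (366 ± 19.4 TPM). Its partner Psmd7 had 284 ± 31.2 TPM. The scaffold-forming lid subunits were close to it, at 304 ± 14.3 TPM for Psmd8, 291 ± 11.98 TPM for Psmd12, 286 ± 25.1 TPM for Psmd6, 245 ± 5.55 TPM for Psmd11 and 212 ± 9.32 TPM for Psmd13. Per exon length Psmd12 stood above Psmd14 in every library, at 446 against 358 TPM. The same held in CPM, at 314 against 269 CPM, so the highest lid gene depends on the length used.

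Psmd3, also a scaffold subunit of the lid (chr11:98682554-98695979, plus strand), stood apart. It had 160, 161 and 125 counts, or 40.6, 38.9 and 34.8 TPM (38.1 ± 3.00 TPM), and was below every other 19S gene in every library. The other 7 lid genes lay between 212 and 366 TPM, and the other 16 genes of the 19S regulator between 146 and 366 TPM. No 50-base window of its coding sequence occurred at another locus, and per exon length it was still the lowest 19S gene at 36.1 TPM, against 144 TPM or more for the others. Shared windows were fewer in the 19S regulator than in the core, with at most 32.3% (Psmd11) and none in 11 of 17 genes, and Spearman's rho between share and level was -0.22.

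Medians of whole classes did not settle which class is higher. The median of the 20S core genes was 272 TPM and that of the 19S genes 291 TPM, a log2 ratio of -0.10 ± 0.05 over the libraries, which turned to 0.33 without Psma8 and Psmb11 and to 0.14 among genes without copies. The alpha median over the beta median was 0.72 ± 0.05 on the log2 scale, with 366 and 222 TPM, but -0.03 per exon length. The ratio of the ATPases to the non-ATPase subunits was 0.13 ± 0.10, with 303 and 284 TPM. It was 0.18, 0.006 and 0.19 in libraries 1, 2 and 3, so library 2 showed almost no difference. A sign test over 3 libraries cannot give a p under 0.25, so none was made.

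The activators differed up to 20.1-fold per coding length, 10.3-fold per exon length and 5.98-fold in CPM. Psme1, the alpha subunit of PA28, had 577, 587 and 612 TPM (592 ± 18.4 TPM). Psme2, its partner in the PA28 ring, had 263, 251 and 281 TPM (265 ± 14.8 TPM), and Psme2b, which is 99.3% identical to it in coding sequence and annotated as protein-coding in 1 exon, had 110, 97.0 and 104 TPM (103 ± 6.40 TPM). Because 69.5% of the windows of Psme2 and 70.2% of those of Psme2b are shared, their counts cannot be told apart with certainty, and their sum was 373, 348 and 384 TPM (369 ± 18.5 TPM). Psme1 exceeded this sum by 0.68 ± 0.06 on the log2 scale and Psme2 alone by 1.16 ± 0.06, in the same direction in all 3 libraries. Per exon length it exceeded Psme2 by 0.89, and the ratio to the sum was 0.03 ± 0.07, so the sum was then as high within the spread. Psme3, the nuclear PA28 gamma, stood at 97.0 ± 13.5 TPM. Psme4, the large PA200 activator, was lowest at 29.5 ± 2.89 TPM, and both Psme3 and Psme4 had no shared window.

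Per coding length, the inhibitor and the chaperones lay below the medians of the 20S core genes (272 TPM) and of the 19S genes (291 TPM). Some still stood above single subunits such as Psmb5 at 116 TPM. Psmf1, known as the proteasome inhibitor PI31, had 191 ± 4.16 TPM. Of the chaperones that assemble the 19S base, Psmd5 had 204 ± 13.8 TPM, Psmd10, also known as gankyrin, 178 ± 12.7 TPM, and Psmd9 75.9 ± 13.5 TPM. The chaperones of the 20S core act as pairs, Psmg1 with Psmg2 and Psmg3 with Psmg4. Psmg1 had 59.3 ± 6.22 TPM and Psmg2 162 ± 5.14 TPM, while Psmg3 had 42.7 ± 4.33 TPM and Psmg4 127 ± 30.4 TPM, so in each pair 1 partner was higher in every library. Psmc3ip, outside the complex, had 23.5 ± 7.60 TPM.

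The constitutive catalytic subunits can be set beside the immunoproteasome subunits that replace them. The log2 ratio of Psmb5 to Psmb8 was -2.64 ± 0.12 (116 against 721 TPM), that of Psmb7 to Psmb10 was -1.34 ± 0.01 (205 against 518 TPM), and that of Psmb6 to Psmb9 was -0.10 ± 0.02 (472 against 505 TPM). Each ratio was below 0 in all 3 libraries. Per exon length the ratios were -0.79, -2.32 and 0.99, so Psmb6 then exceeded Psmb9 (533 against 269 TPM), and in CPM it was 0.02, so the direction for this pair depends on the length used. Psmb8, Psmb9 and Psmb10 had no shared 50-base windows, whereas 56.8% of those of Psmb5 were shared.

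Some of these genes differed between the libraries. Of the 45 genes with a mean count of at least 10, 8 (17.8%) passed a chi-square test of the 3 counts against Poisson expectation with TMM-scaled library sizes, at a Benjamini-Hochberg adjusted p under 0.05. Of all genes tested 27.6% did so, and the share among the proteasome genes was not above this background. At an unadjusted p under 0.05 there were 21 of 45 (46.7%), against 38.6% of all genes. Library 2 was the highest for 7 of the 8, and 8.71% of all genes passed with that direction. Library 1 was the highest for 1, against 11.1% of all genes, and library 3 for 0, against 7.75%.

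Of the alpha subunits, Psma1 had 755, 953 and 764 counts (1.22-fold between the highest and lowest library after scaling, 95% exact interval 1.11 to 1.35, adjusted p = 0.00183 by chi-square with Benjamini-Hochberg adjustment). Psma6, at 1.17-fold (1.06 to 1.28), and Psma2, at 1.16-fold (1.05 to 1.28), had adjusted p-values of 0.0210 and 0.0337 in the same chi-square test. All 3 were highest in library 2 and lowest in library 1. The extremes were picked by their values, so these intervals are descriptive.

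Of the 19S subunits, Psmd7 had 614, 798 and 601 counts (1.26-fold, 1.13 to 1.40, adjusted p = 0.000744 by the same chi-square test). Psmd6 had 770, 954 and 730 counts (1.20-fold, 1.09 to 1.32, adjusted p = 0.00377 by chi-square). Psmd4 had 993, 1150 and 871 counts (1.15-fold, 1.05 to 1.26, adjusted p = 0.0166 by chi-square). These were highest in library 2 as well, whereas the scaffold Psmd2 was highest in library 1, with 1504, 1345 and 1238 counts (1.16-fold, 1.07 to 1.24, adjusted p = 0.00395 by chi-square). The 20S chaperone Psmg4 showed the widest range of the 8, with 99, 156 and 93 counts (1.53-fold, 1.18 to 1.98, adjusted p = 0.00601 by chi-square). No beta subunit, ATPase or activator passed in this main test. The beta gene Psmb1 and the ATPase Psmc6 passed with DESeq2 size factors or plain totals, and the activator Psme4 without library 1. In the main test, an unadjusted p under 0.05 was found for 1 of 7 beta subunits, 3 of 6 ATPases and 2 of 5 activators, against 38.6% of all genes. The catalytic subunits had adjusted chi-square p-values of 0.278 for Psmb5 (1.19-fold, 0.986 to 1.43), 0.385 for Psmb6 (1.09-fold, 0.986 to 1.19) and 0.477 for Psmb7 (1.10-fold, 0.963 to 1.26).

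These calls depended on libraries 1 and 2. Without library 2, 0 of 45 genes passed the chi-square test, against 9.38% of all genes, and 11 of 45 had an unadjusted p under 0.05, against 22.5%. Without library 1 there were 5, against 16.5% of all genes. Of these, Psmd4, Psmd7 and Psmg4 were among the 8, and Psme4 and Psmc3ip were not, so none of the 3 alpha subunits passed. Without library 3 there were 11, against 19.5% of all genes, and these included all 8. A negative binomial test was also run, with a single dispersion for all genes that edgeR estimated from these same 3 libraries. There 0 of 45 genes passed, against 0.914% of all genes, and 0 had an unadjusted p under 0.05, against 6.74%. Because the spread between the 3 libraries sets this dispersion, the test cannot decide whether the genes differ beyond counting error. Library 2 also held the highest summed plasma cell, erythroid and neutrophil markers, at the values given above. Within the plasma cell sum, Jchain was highest in library 2 and Prdm1 in library 1. The part of these markers in the differences was not tested.

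**Figure D3:**
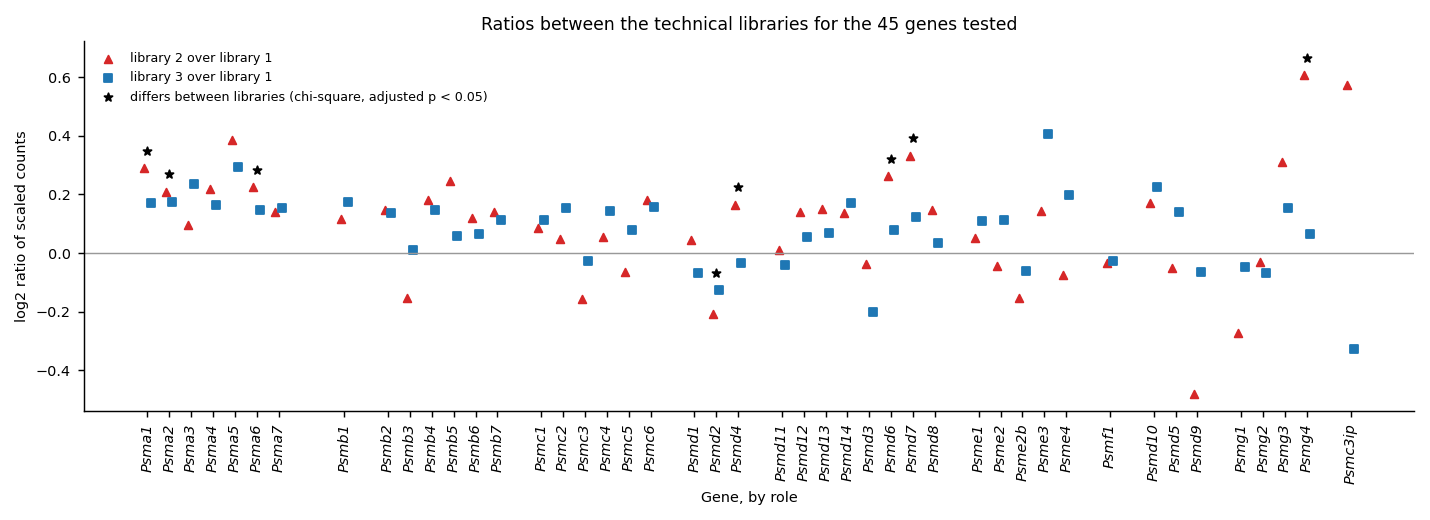
Log2 ratio of scaled counts for the 45 genes tested, library 2 over library 1 and library 3 over library 1, grouped by role; stars mark the 8 genes with an adjusted p under 0.05 in the chi-square test. All 7 expressed alpha subunits lie above 0 in both ratios.

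As a group the genes were lower in library 1 than in the others. The median log2 ratio of library 2 over library 1 was 0.14 for the 45 genes, 32 of which were above 0, against -0.01 and 48.3% above 0 for all genes tested. For library 3 over library 1 it was 0.11, with 33 above 0, against -0.02 for all genes. The alpha subunits were above 0 in 7 of 7 genes in both ratios, with medians of 0.22 and 0.17. Library ratios followed gene length: over all genes the median ratio of library 2 to library 1 was 0.15 for coding sequences up to 700 bases and -0.09 for those over 3000 bases, and the median coding length was 792 bases in the family against 1374 bases for all genes tested. With the trends of each library with coding length and GC content removed, the medians of the family were 0.12 and 0.09. Then 7 genes passed the chi-square test, against 23.0% of all genes. Psma1, Psmd4, Psmd6 and Psmd7 were among them, and Psma2, Psma6, Psmd2 and Psmg4 were not. Psmd1, Psmd9 and Psmd12 passed in addition.

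**Figure D4:**
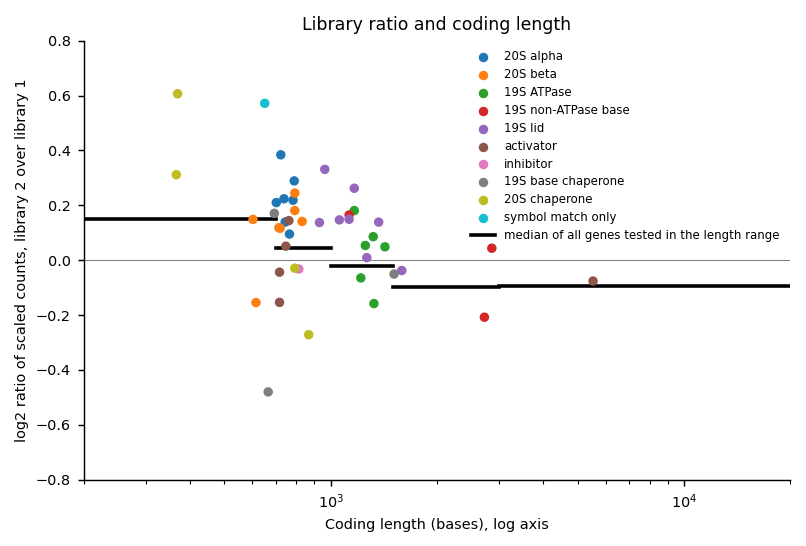
Log2 ratio of scaled counts, library 2 over library 1, against coding length in bases (log axis) for the 45 proteasome genes tested, coloured by role; black lines give the median of all genes tested in 5 length ranges. The medians of all genes run between 0.15 for the shortest and -0.10 for those of 1500 to 3000 bases, and 32 of the 45 points lie above 0.

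Unscaled counts of the most densely read genes did not follow the library totals. The 8 genes with 1 or more counts per coding base were Psma1, Psma2, Psma6, Psma7, Psmb1, Psmb2, Psmb6 and Psme1. Their median ratio of unscaled counts, library 3 over library 1, was 0.998 (0.941 to 1.01), while the totals stood in a ratio of 0.896. The ratio was 0.972 for the 19 genes with 0.5 to 1 counts per base and 0.920 for the 18 below 0.5, and all genes tested gave 0.961, 0.927 and 0.876 in the same ranges. For library 2 over library 1 the ratio was 1.14 in the densest genes, 1.14 in the middle range and 1.04 in the lowest, while the totals stood in a ratio of 1.01 and all genes tested gave 1.06, 1.10 and 1.01. By median, the proteasome genes thus lay above the totals in both ratios in all 3 ranges. For library 2 over library 1 the densest genes did not stand out from the middle range. The cause was not tested.

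Genes that work with the proteasome were taken from a list of 29, of which 28 matched. At 1 CPM in every library there were 27, with a median over the 28 of 54.6 TPM, and 10 of 27 tested (37.0%) passed the chi-square test, against 27.6% of all genes. Library 1 was the highest for 2 of these, library 2 for 5 and library 3 for 3, against 11.1%, 8.71% and 7.75% of all genes. Under the negative binomial test 0 passed and 0 had an unadjusted p under 0.05, against 0.914% and 6.74% of all genes. After removal of the trends with length and GC content 6 of the 10 passed, without Pomp, Uba6, Uchl5 and Txnl1. The highest levels belonged to Sem1, a small subunit of the 19S lid (771 ± 43.4 TPM), and Pomp, the maturation factor of the core (567 ± 51.7 TPM). The ubiquitin-activating enzyme Uba1 had 249 ± 25.9 TPM. Low levels were found for the shuttle Ubqln2 (4.21 ± 1.57 TPM), the Vcp cofactor Nploc4 (11.3 ± 1.36 TPM) and the protease Ddi2 (13.5 ± 3.70 TPM). Those that passed the chi-square test without these changes were Pomp, Uba1, Uba6, the Vcp segregase and its cofactor Ufd1, the deubiquitinases Usp14 and Uchl5, the thioredoxin-like Txnl1, and the shuttles Rad23b and Ubqln1. Their ranges ran from 1.21-fold for Pomp to 1.76-fold for Ubqln1.

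Nfe2l1, known as a transcription factor that raises proteasome genes when proteasome activity is short, had 54.0 ± 2.17 TPM. Promoter windows of RefSeq (GRCm38.p6, 250 bases before to 50 after the gene start) were searched on both strands for TGANNNNGC, the core of the element that this factor binds, and for CCAAT. The table held 39 of the 47 genes. TGANNNNGC was found in 22 of them (56.4%), against 45.05% of 27025 genes, and CCAAT in 14 (35.9%), against 41.1%. The matches of the catalytic subunits Psmb5 (chr14:54618024-54618052, minus strand) and Psmb6 (chr11:70525338-70525366, plus strand) just before the gene start are shown, with the motif in capitals.
Psmb5: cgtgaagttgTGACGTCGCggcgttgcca
Psmb6: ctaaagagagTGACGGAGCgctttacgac
A match is a description of the letters and not a bound site, and it was common in promoters of all genes.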

How the data were processed

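Mouse regulatory T cells were measured by polyA plus RNA-seq in 3 libraries. The deposited files give a whole-number count per gene ID. Per the file headers and descriptions that accompany them, the authors quantified on assembly mm10 with GENCODE M4. Not given in the sources used here are the aligner, counter, strand setting, treatment of reads that fit several loci and removal of duplicates. Library totals were 3206781, 3228215 and 2872350 counts, and exact binomial intervals cover counting error only.

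Gene names, positions, lengths and transcripts came from the later release GENCODE M21 on the same assembly: 22195 IDs matched and 262 did not. Because gene models differ between M4 and M21, lengths and copies are those of M21. CPM and TPM by coding length were computed from the deposited counts, with the principal coding sequence as length. The 3 libraries form 1 group, so no test between conditions exists. Counts were tested per gene over all 10282 genes with a mean count of at least 10. The test was Pearson's chi-square against Poisson expectation, with TMM sizes from edgeR 4.0.16 in R 4.3.3 and Benjamini-Hochberg adjustment at 0.05. It was first run on simulated Poisson counts with the same library sizes. Those counts follow the model of the test, so this check does not cover spread beyond counting error. The p-values measure the spread between technical libraries only. Copies were sought with BLAST 2.17.0 (e-value 1e-20) and with exact 50-base windows among annotated transcripts. No genome sequence was used, so copies outside the annotation were not sought. Motifs were searched in RefSeq promoter sequences (GRCm38.p6). Alternatives tried were plain totals, size factors of DESeq2 1.42.0, other filters and thresholds, a negative binomial model, other lengths, subsets of genes and leaving out each library. Trend removal, the other lengths for pairs of genes and for core genes with copies, and the sets without Psma8, Psmb11 and Psmc3ip were chosen after seeing the data.

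The members and lists were chosen with earlier results of these data known. By rule, all members were named, with full statistics for those past the test and for the catalytic subunits, and from the partner list those past the test and the 4 highest and 4 lowest per coding length. Some partners that the rule takes are not reported here, and Paaf1 was not analysed here. Python 3.11.15 was used with scipy 1.17.1 and numpy 2.4.6; tables were handled in pandas 2.3.3 and figures drawn in matplotlib 3.10.9.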

Additional observations from a re-analysis of the deposited data

How the results depend on the processing

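Of 62 alternative values, 31 kept their direction and stayed within the spread or within 1.5 times the main count, 24 moved and 7 turned in sign. Of 45 proteasome genes tested, the 8 that differed between libraries became 14 with plain totals. Of all genes 27.9% passed there, so the 14 of 45 proteasome genes lay near this background as well. At an adjusted p of 0.01 in the chi-square test the count was 5, against 16.5% of all genes. Under the negative binomial model it was 0, against 0.914%, and 0 at an unadjusted p under 0.05, against 6.74%. The dispersion of that model came from the same 3 libraries. Leaving out each library gave 0 to 11, with 0 without library 2, where 960 of all genes passed against 2836 with all 3. The shares over all genes were 16.5%, 9.38% and 19.5% without libraries 1, 2 and 3. DESeq2 size factors gave 11, against 27.7% of all genes. With these factors, and with plain totals, the beta gene Psmb1 and the ATPase Psmc6 passed as well. The number of genes at 1 CPM or more did not move by more than 1.5 times under any alternative tried. The median level of 239 TPM was 264 per exon length, 205 for genes without copies, 204 for genes under 1 count per coding base, 255 without Psma8, Psmb11 and Psmc3ip, and 216 as CPM with no length correction.

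The log2 ratio of the 20S to the 19S median (-0.10) was -0.29 per exon length, -0.77 as CPM and -1.20 for genes under 1 count per coding base, and turned to 0.14 for genes without copies and 0.33 without Psma8 and Psmb11. The ratio of alpha to beta subunits (0.72) was 0.66 as CPM, 1.03 for genes without copies and 0.83 without Psma8 and Psmb11, and turned to -0.031 per exon length and to -0.49 for genes under 1 count per coding base. The ratio of ATPases to non-ATPase subunits (0.13) was 0.65 per exon length and 0.28 as CPM. Among pairs of genes, the log2 ratio of Psmb6 to Psmb9 (-0.10) turned to 0.99 per exon length and 0.021 as CPM, and that of Psmb7 to Psmb5 (0.82) turned to -1.03 per exon length. Beyond the change of length or of genes in each setting, the cause was not tested. No paired analysis was possible because the labels give 1 group. With 1 biological replicate, none of these values speaks of the spread between animals, and at 2872350 to 3228215 counts a library the low genes Psma8 and Psmb11 could not be told apart from 0.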
